A study of Rattus norvegicus with 8 samples.

Results

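Retinal ganglion cells (RGCs), the neurons whose axons form the optic nerve, were compared between embryonic day 21 (E21) and day 11 after birth (P11) for 6 genes that encode matrix-remodelling enzymes and their inhibitors. The set was taken by symbol. It holds heparanase (Hpse) and every gene whose symbol begins with Adamts, Adamtsl, Mmp or Timp followed by a number, among the 1998 gene IDs of 32623 for which a symbol was at hand. The members were 3 Adamts genes (Adamts1, Adamts4 and Adamts14), 2 Timp genes (Timp2 and Timp3) and Hpse, with 0 Mmp and 0 Adamtsl genes, so other genes of these families were not analysed here. All 6 passed the filter on low counts. Cells came from Sprague Dawley rats, either E21 embryos or P11 pups, for which no genetic change or treatment is named, with 4 libraries per stage. Each library was made from an independent litter, so the litter and not the single animal is the replicate. Retinas were dissociated with papain and the RGCs were retained on plates coated with an antibody against Thy1 after depletion of macrophages, a procedure of several hours.

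The extracellular matrix around neurons is built from proteoglycans, laminins, collagens and hyaluronan. Heparanase cuts the heparan sulfate chains of proteoglycans, whereas the ADAMTS enzymes are secreted metalloproteases, several of which cut the core proteins of chondroitin sulfate proteoglycans. The TIMPs are secreted proteins that block metalloproteases, and TIMP3, unlike TIMP2, is held in the matrix and also inhibits several ADAMTS enzymes. In the nervous system these proteins are best known for their part in tissue growth, blood vessel formation and the turnover of the matrix that surrounds mature neurons.

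Between E21 and P11 the RNA of 5 of the 6 genes rose and that of 1, Adamts4, fell. The largest rise with ample counts was that of Timp3, 11.4-fold, and it was followed by Adamts1 (3.52-fold), Hpse (2.93-fold) and Timp2 (2.40-fold). Adamts14 rose from nearly no reads, and Adamts4 fell 2.03-fold. Log2 fold changes are of E21 over P11, so negative values mean higher at P11. A gene was called where its log2 fold change exceeded 1 in size and its p, after Benjamini-Hochberg adjustment over the 14043 genes tested in edgeR (quasi-likelihood), was below 0.01. In all genes tested, 16.5% were called higher at P11 and 8.16% higher at E21. The median log2 fold change was -1.68 over the 6 members, 0.018 over the 1779 tested genes with a symbol and 0.0042 over all genes tested. All 8 libraries separated by stage for each of the 6 genes, a pattern that 35.9% of all genes tested showed with P11 higher and 35.4% with E21 higher. With glmTreat, which asks whether a change exceeds the fold threshold, 5 members were still called higher at P11, where 11.7% of all genes were, and 0 were called higher at E21, where 4.76% were. The RNA came from the whole purified population, so that more cells of a type and more RNA per cell cannot be told apart.

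**Figure D1:**
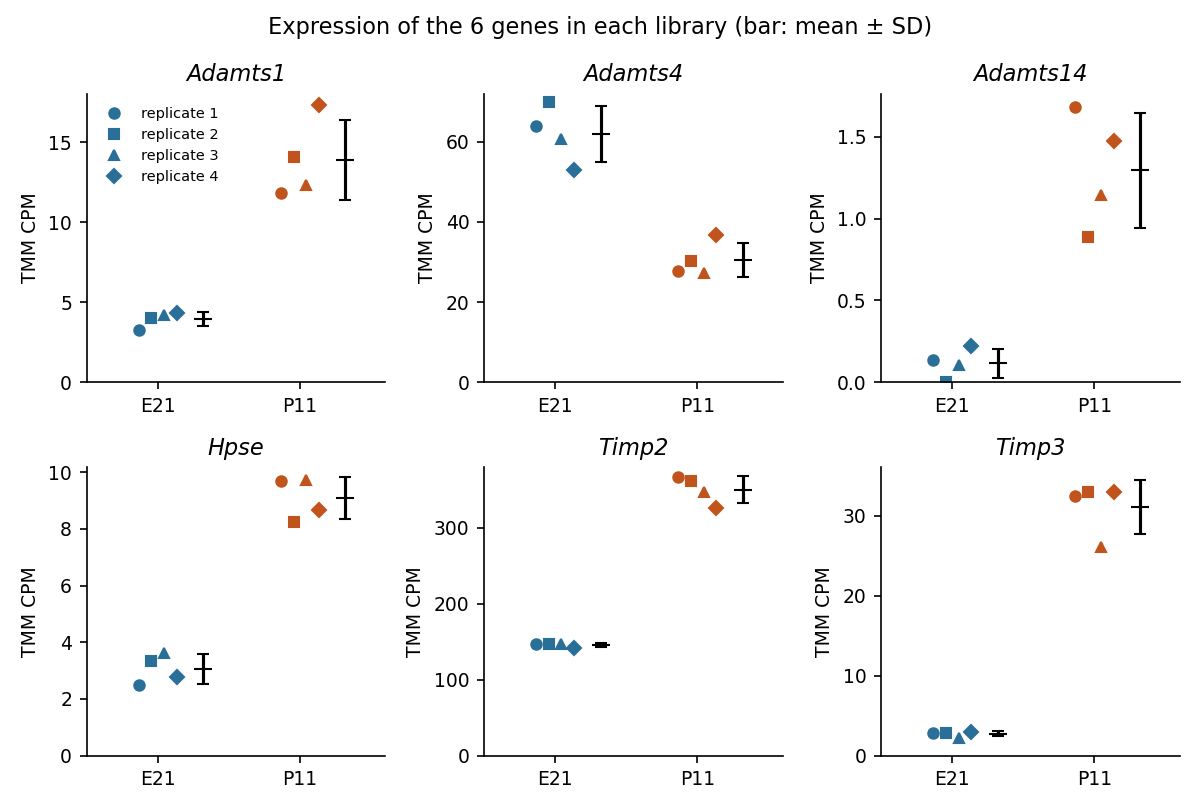
Expression of the 6 genes at E21 (blue) and P11 (orange), with 1 symbol per library and the vertical axis in reads scaled to a common depth by TMM (TMM CPM) starting at 0. The black bars show the mean and SD of 4 libraries. The P11 libraries lie above the E21 libraries in every panel but that of Adamts4, where they lie below.

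Depth ranged between 13899299 and 20116017 counted reads in the E21 libraries and between 14780002 and 17756824 in the P11 libraries, and a difference between the stages was not detected (exact permutation test of the means, two-sided, p = 0.543, where the smallest p for 4 against 4 is 0.0286). Neuronal RNA was abundant, with Rbfox3, Uchl1, Gap43 and Cntn1 at a summed 3596 to 3745 CPM at E21 and 2810 to 2925 CPM at P11. The RGC markers Pou4f1, Rbpms and Thy1 were not paired with IDs and were not analysed here. Markers of cells around blood vessels were near 0 at E21 and abundant at P11. The 3 mural cell markers Rgs5, Notch3 and Higd1b summed to between 3.09 and 5.27 CPM at E21 and between 278 and 554 CPM at P11, and 3 of 3 were called higher at P11. The 3 fibroblast markers Col1a1, Col3a1 and Prrx1 summed to between 1.72 and 3.62 CPM at E21 and between 140 and 266 CPM at P11, and 3 of 3 were called higher at P11. The 6 endothelial markers summed to 20.1 to 24.1 CPM and 29.5 to 42.8 CPM, mostly from Notch4, and of the 3 that could be tested Flt1 and Flt4 were called higher at P11. Among the P11 libraries, all 3 of these sums were lowest in replicate 3 and highest in replicate 4. Microglial markers (Ptprc, Aif1, Itgb2) stayed at or below 0.952 CPM in sum in each library. Summed markers of astrocytes and Müller cells (Gfap, Sox9, Pdgfra) went from between 11.2 and 15.8 CPM to between 5.44 and 6.55 CPM. This sum is mostly Pdgfra, called higher at E21 (13.3 to 5.55 CPM). Gfap, at no more than 3 reads in any library, and Sox9 had too few reads for the test. Those of amacrine cells (Gad1, Prox1, Pax6) went from between 427 and 444 CPM to between 316 and 325 CPM, a sum that is mostly Pax6 (432 and 305 CPM, not called), whereas Gad1 rose from 0.856 to 13.8 CPM and Prox1 fell from 5.97 to 2.63 CPM. Those of bipolar cells (Grm6, Prkca, Pcp2, Lhx4) went from between 41.4 and 49.0 CPM to between 87.3 and 94.5 CPM, which is mostly Prkca, called higher at P11 (38.3 to 87.5 CPM), whereas Grm6 went from 5.97 to 3.37 CPM and was not called, and Pcp2 and Lhx4 had too few reads for the test.

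Promoter sequences of the 6 genes were read from RefSeq (assembly GRCr8), in which all 6 symbols matched, in windows of 250 bases before to 50 bases after the annotated start. The 250 bases before the start are shown for the 2 pairs of paralogs that are compared below, Adamts1 with Adamts4, which moved in opposite directions, and Timp2 with Timp3, which both rose. Each sequence is written 5′ to 3′ on the strand of the gene and ends at the base before the start. Capitals mark the GC box (GGGCGG), the TATA box (TATAAA) and the short core TGACG of the cAMP response element (CRE), on either strand. The windows are chr11:38427385-38427634 (minus strand) for Adamts1, chr13:86202761-86203010 (plus strand) for Adamts4, chr10:104089215-104089464 (minus strand) for Timp2 and chr7:19459559-19459808 (minus strand) for Timp3.
Adamts1: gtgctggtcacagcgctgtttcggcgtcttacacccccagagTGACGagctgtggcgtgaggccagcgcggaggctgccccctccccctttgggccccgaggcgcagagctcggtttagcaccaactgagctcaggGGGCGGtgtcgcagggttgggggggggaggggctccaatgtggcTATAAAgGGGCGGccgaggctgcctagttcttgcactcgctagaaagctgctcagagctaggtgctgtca
Adamts4: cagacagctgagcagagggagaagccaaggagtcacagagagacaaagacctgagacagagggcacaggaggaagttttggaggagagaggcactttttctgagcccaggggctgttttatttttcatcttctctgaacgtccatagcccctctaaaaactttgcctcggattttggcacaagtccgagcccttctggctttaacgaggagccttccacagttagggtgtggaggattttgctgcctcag
Timp2: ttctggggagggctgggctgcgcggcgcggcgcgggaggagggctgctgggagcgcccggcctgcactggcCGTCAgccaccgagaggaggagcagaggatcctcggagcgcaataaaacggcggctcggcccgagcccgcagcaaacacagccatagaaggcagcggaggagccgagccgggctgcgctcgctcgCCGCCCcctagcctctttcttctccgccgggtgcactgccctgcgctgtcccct
Timp3: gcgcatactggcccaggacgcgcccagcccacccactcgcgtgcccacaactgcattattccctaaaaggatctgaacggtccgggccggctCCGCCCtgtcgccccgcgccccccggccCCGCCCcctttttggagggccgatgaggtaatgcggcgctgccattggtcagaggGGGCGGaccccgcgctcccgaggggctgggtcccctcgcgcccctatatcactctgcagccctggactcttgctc

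The 250 bases of Adamts4 were 51.2% G or C, which is also the median of all 33469 rat promoters in the table. Those of the other 5 genes were richer, between 65.2% and 76%. A GC box was present in 5 of the 6 windows of 300 bases, with Adamts4 the exception, and in 33.1% of all promoter windows of the same length. Adamts14 held 7 GC boxes and Timp3 held 3. The TATA box was found in Adamts1 alone, 70 to 65 bases before the start, and in 14.2% of all windows. The full CRE (TGACGTCA) was in 0 of the 6 windows and in 1.83% of all windows. Its core TGACG, which every full CRE also contains, was in Adamts1 and Timp2 and in 21.2% of all windows. The E-box (CANNTG), which is not set in capitals, was in 4 of the 6 windows and in 72.1% of all windows. These are matches of letters and no measurement of factor binding.

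**Figure D2:**
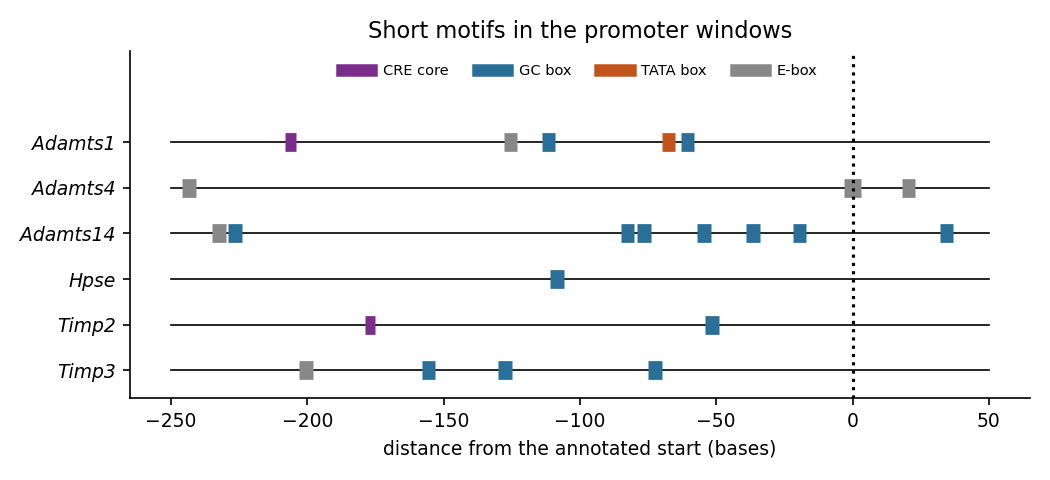
Positions of the motifs in the promoter windows of the 6 genes, with the distance from the annotated start in bases on the horizontal axis and coloured blocks for the CRE core, the GC box, the TATA box and the E-box on either strand. Adamts4 carries E-boxes alone, whereas the other 5 genes carry at least 1 GC box.

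Hpse encodes the endoglycosidase that cuts heparan sulfate. Its expression in E21 replicates 1 to 4 was 2.48, 3.34, 3.62 and 2.78 CPM. In P11 replicates 1 to 4 it was 9.68, 8.23, 9.71 and 8.67 CPM. The lowest P11 library thus exceeded the highest E21 library, and the means were 3.06 ± 0.521 CPM (SD, n = 4) at E21 and 9.07 ± 0.742 CPM (SD, n = 4) at P11. In edgeR this was a log2 fold change of -1.55 with a standard error of 0.14 (adjusted p = 3.31e-08). The spread of the P11 libraries, 8.18% of the mean, was about what counting alone gives, 8.22%. The part of mural cells and fibroblasts in the rise of Hpse was not tested. Without P11 replicate 4 the log2 fold change of Hpse was -1.57. In RefSeq the Hpse locus overlaps a pseudogene of Ppid.

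The genes for heparan sulfate carriers and for the synthesis and breakdown of the chain, on which heparanase acts, showed no common direction. Of 13 such genes 12 could be tested, of which 3 were called higher at P11, 1 was called higher at E21 and 8 were not called. Among all genes tested, 16.5% were called higher at P11 and 8.16% higher at E21. The median log2 fold change was -0.07, against 0.0042 for all genes tested. Glypican 2 (Gpc2), a heparan sulfate proteoglycan of growing axons, fell from 533 to 6.51 CPM, a log2 fold change of 6.32. Glypican 4 (Gpc4) rose from 1.03 to 4.07 CPM, with a log2 fold change of -2.02. The other genes that rose were Col18a1, which encodes a basement membrane collagen with heparan sulfate chains (-1.65), and Tgfbr3, the coreceptor betaglycan (-1.49). The genes for the lysosomal enzymes Ids, Idua and Gusb, which complete the breakdown of the chains, had log2 fold changes of 0.70, -0.04 and -0.10 and were not called.

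Adamts1 encodes a secreted protease that cuts aggrecan and versican. Its expression in the 4 E21 libraries was 3.28, 4.003, 4.20 and 4.31 CPM. In the P11 libraries it was 11.8, 14.1, 12.3 and 17.3 CPM. All P11 libraries were above all E21 libraries, and the highest was replicate 4. The edgeR estimate was a log2 fold change of -1.82 with a standard error of 0.14 (adjusted p = 3.23e-09), from a mean of 3.95 ± 0.464 CPM to 13.9 ± 2.497 CPM (SD, n = 4). The P11 libraries varied by 17.97% of their mean, whereas counting alone gives 6.59%. Replicate 4 also had the highest sums of the mural, fibroblast and endothelial markers among the P11 libraries, and the part of such cells in the rise of Adamts1 was not tested. Without replicate 4 the log2 fold change was -1.69.

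Adamts4, an aggrecanase that also cuts brevican, an abundant proteoglycan of the brain, went the other way. Its expression was 64.0, 69.9, 60.8 and 53.0 CPM in the E21 libraries. It was 27.7, 30.2, 27.4 and 36.7 CPM in the P11 libraries. The stages did not overlap, and as for Adamts1 the highest P11 library was replicate 4. The mean fell from 61.9 ± 7.03 CPM to 30.5 ± 4.31 CPM (SD, n = 4), which edgeR gave as a log2 fold change of 1.02 with a standard error of 0.10 (adjusted p = 2.12e-06). This value lies within its standard error of the fold threshold, so the direction held under all alternatives but the call did not, as with library size scaling (0.97) and with glmTreat (adjusted p = 0.806). Without P11 replicate 4 it was 1.12. The oligodendrocyte marker Mog fell along with Adamts4, from 23.1 to 10.4 CPM (log2 fold change 1.14), and its part in the result was not tested. Reads of overlapping genes cannot be told apart here because the strand setting of the counting is not given in the sources used here.

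Adamts14 encodes a protease that trims the amino end of fibrillar procollagens. It had 2, 0, 2 and 3 reads in the E21 libraries and 25, 15, 18 and 27 reads in the P11 libraries. In CPM the E21 libraries were at 0.134, 0, 0.105 and 0.219, at or below the level of 3 reads, and the P11 libraries at 1.68, 0.888, 1.14 and 1.47. The 85 reads at P11 against 7 at E21 gave a ratio of 12.4 after scaling for library size, with an exact 95% interval for counting error from 5.78 to 31.8. The reads carry no molecular identifiers and may repeat a molecule, so this interval covers counting error alone. The gene was called higher at P11 (adjusted p = 3.82e-06, edgeR), and requiring 10 reads in every library removed it from the test. The P11 libraries varied by 27.1% of their mean, where counting alone gives 21.8%, and the part of mural cells and fibroblasts in the rise was not tested.

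The fibrillar collagens, whose precursors are the substrates of Adamts14, rose in 3 of 4 cases. Col3a1 rose from 0.987 to 136 CPM (log2 fold change -7.13), Col1a1 from 1.54 to 56.1 CPM (-5.20) and Col5a2 from 7.66 to 45.3 CPM (-2.55), whereas Col11a2 had a log2 fold change of -0.24. The median was -3.88, against 0.0042 for all genes tested, of which 16.5% were called higher at P11. Col1a1 and Col3a1 also stand in the fibroblast list above, so these 2 counts are not separate evidence.

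**Figure D3:**
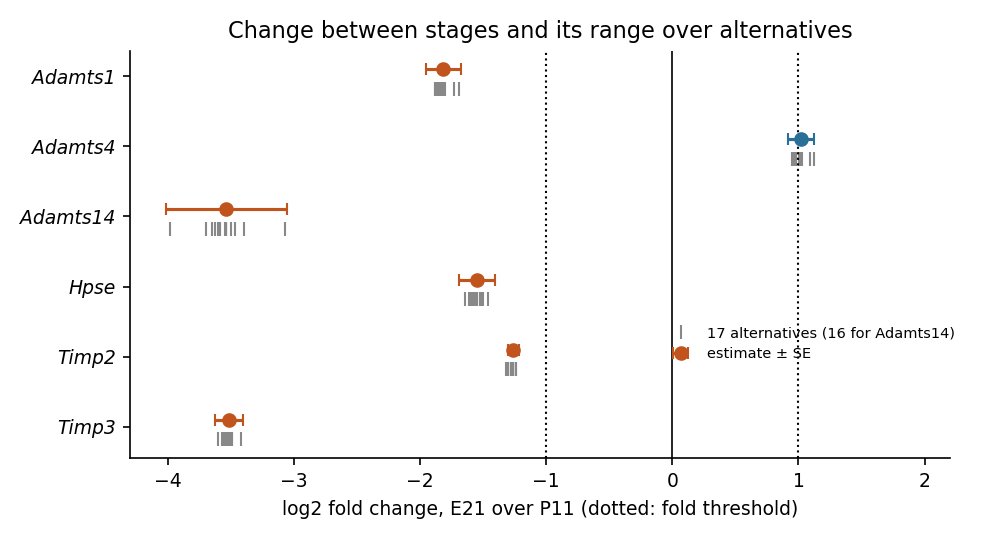
Log2 fold change, E21 over P11, of each gene with its standard error (points, orange for higher at P11 and blue for higher at E21). Grey ticks show the values under other normalizations, filters and tests and with each library left out, and dotted lines mark the fold threshold of 1. Adamts4 alone straddles a threshold, with alternatives from 0.95 to 1.12, whereas those of Timp2, the nearest of the others, run from -1.32 to -1.24.

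Further genes of the proteoglycan matrix were examined, 5 for enzymes of chain synthesis (Chst3, Chst7, Chst12, Dse and Cant1) and 6 for proteoglycans and a partner protein. Aggrecan, versican and brevican are not among them, so the list does not speak for the known substrates of the ADAMTS proteases. Of 11 genes tested 6 were called higher at P11, 1 was called higher at E21 and 4 were not called. Over all genes tested, 16.5% were called higher at P11 and 8.16% higher at E21. The median log2 fold change of the list was -2.28, against 0.0042 for all genes tested. The largest change was that of Prelp, a small leucine-rich proteoglycan, from 0.030 CPM, with at most 1 read per library, to 2.05 CPM. Tenascin-R (Tnr), which links chondroitin sulfate proteoglycans in the nets around neurons, rose from 5.81 to 143 CPM (log2 fold change -4.61, standard error 0.09). The sulfotransferases Chst3 (-3.23) and Chst7 (-2.28), the small proteoglycan Fmod (-3.43) and the photoreceptor matrix gene Impg2 (-2.80) also rose. Opticin (Optc), a proteoglycan of the vitreous, fell from 1.59 to 0.707 CPM (1.15). Impg2 is a gene of photoreceptors, whose 5 markers in sum went from between 5.52 and 7.10 CPM to between 22.8 and 36.7 CPM, with 3 of 5 called higher at P11.

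Timp2 was counted with between 1941 and 6112 reads in each library. Its expression was 147, 148, 147 and 142 CPM in the E21 libraries. It was 367, 362, 348 and 326 CPM in the P11 libraries. All P11 libraries exceeded all E21 libraries, with means of 146 ± 2.69 CPM and 351 ± 18.3 CPM (SD, n = 4). Its log2 fold change in edgeR, -1.26, had the smallest standard error of the 6, 0.04 (adjusted p = 1.22e-13). The E21 libraries differed by 1.84% of the mean, no more than the 2.04% that counting gives, so a difference among these litters was not detectable. At P11 the spread was 5.23%, above the 1.32% from counting, and the lowest library was replicate 4, in which the mural, fibroblast and endothelial marker sums were highest, and the part of such cells in the rise was not tested. Without that library the log2 fold change was -1.30. The locus of Timp2 overlaps that of Cep295nl in RefSeq.

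Timp3 showed the larger rise of the inhibitor pair. It was at 2.88, 2.89, 2.26 and 2.93 CPM in the E21 libraries. It was at 32.5, 33.0, 26.1 and 32.9 CPM in the P11 libraries. The stages were far apart, and replicate 3 was the lowest at each. The mean went from 2.74 ± 0.321 CPM to 31.1 ± 3.37 CPM (SD, n = 4), a log2 fold change of -3.51 with a standard error of 0.11 in edgeR (adjusted p = 5.91e-14). Among all genes tested Timp3 stood at rank 466 of 14043 in log2 fold change toward P11. P11 replicate 3, the lowest for Timp3, was also the lowest for the mural, fibroblast and endothelial marker sums. At E21, where Timp3 was also lowest in replicate 3, the mural and fibroblast sums were lowest in replicate 2. The endothelial sum at E21 was highest in replicate 3. The part of such cells in the rise of Timp3 was not tested. Without P11 replicate 3 the log2 fold change was -3.60, and without P11 replicate 4 it was -3.49. Timp3 lies within the Syn3 locus in RefSeq, and reads of a gene that contains another cannot be told apart here.

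**Figure D4:**
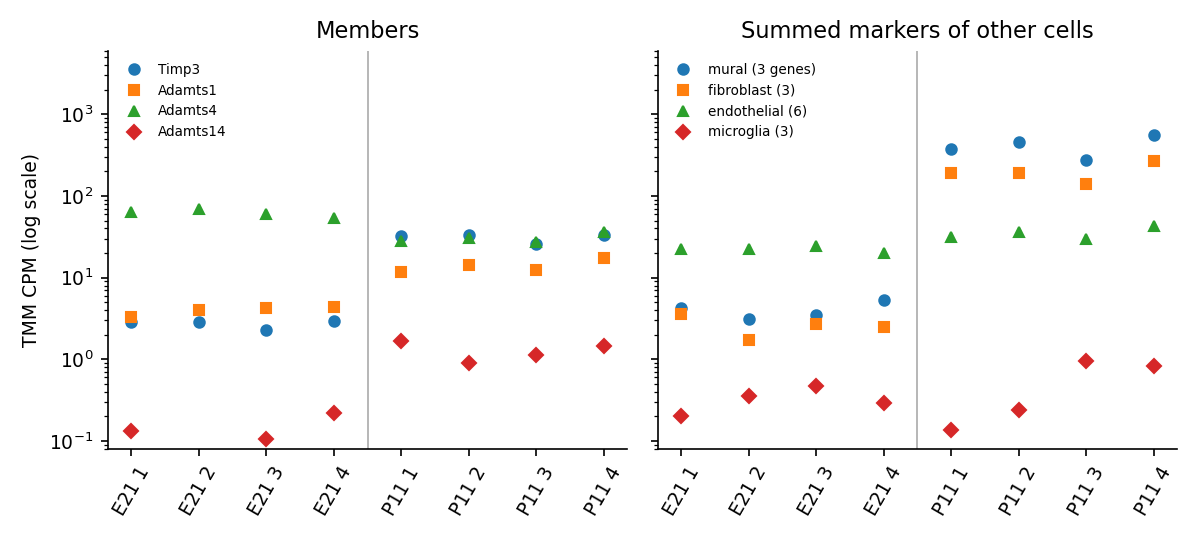
Expression of 4 members (left) and summed markers of other cells (right) in each library, in TMM CPM on a logarithmic axis. Adamts14 has no point in E21 replicate 2, where it had 0 reads. From E21 to P11 the mural markers go from at most 5.27 CPM to at least 278 CPM, a larger step than that of any member, whereas the microglial markers stay below 1 CPM.

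Within each library, members were also set against each other, where only the change of a ratio can be read because the lengths of the transcripts were not at hand. The log2 ratio of Adamts4 to Adamts1 was 3.97 ± 0.295 (SD, n = 4) at E21 and 1.14 ± 0.0653 at P11, a change of 2.83. At E21 it lay between 3.62 and 4.29, and at P11 between 1.08 and 1.23. At P11 both genes were highest in replicate 4, and the ratio varied little. The log2 ratio of Timp3 to Timp2 was -5.74 ± 0.191 at E21 and -3.50 ± 0.179 at P11, a change of -2.25, and its P11 values ran from -3.74 in replicate 3 to -3.31 in replicate 4. These values follow from the levels above and were given no test.

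**Figure D5:**
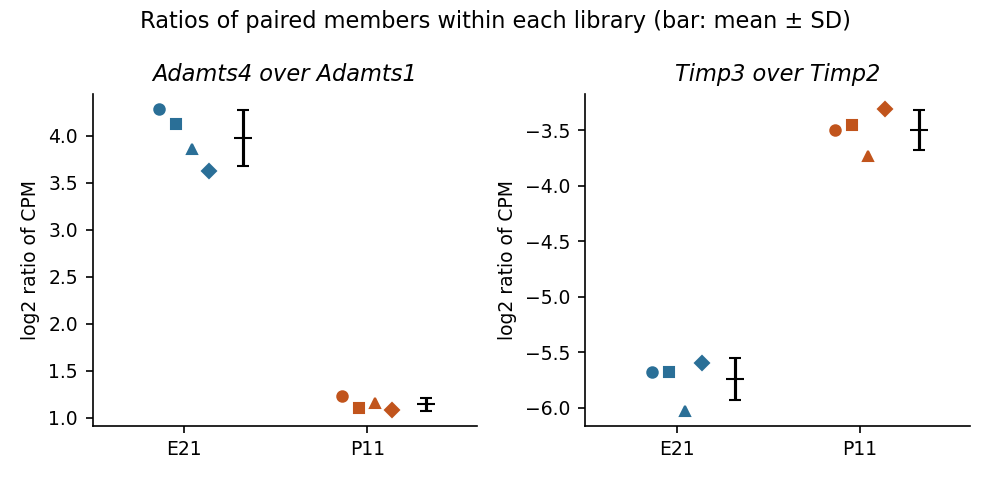
Log2 ratio of the CPM of Adamts4 to Adamts1 (left) and of Timp3 to Timp2 (right) in each library, with the mean and SD of 4 libraries as black bars. The first falls from about 3.97 at E21 to 1.14 at P11 and the second rises from about -5.74 to -3.50, with no overlap between the stages in either panel.

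Other extracellular and membrane proteases and other inhibitors changed in both directions. Of 15 proteases from other families 9 could be tested, with 4 called higher at P11, 1 called higher at E21 and 4 not called. In all genes tested these shares were 16.5% at P11 and 8.16% at E21. The median log2 fold change of the proteases was -0.88. The largest changes were those of Bace2, a membrane-bound aspartyl protease, which rose from 0.404 to 6.48 CPM (log2 fold change -3.91), and of the aminopeptidase Lvrn, which fell from 2.47 to 0.562 CPM (2.12). Among inhibitors of proteases, Wfikkn2 rose from 0.411 to 1.63 CPM, while Pi16 fell from 6.86 to 3.09 CPM (log2 fold change 1.14) and Serpinf2, which inhibits plasmin, fell from 1.81 to 0.841 CPM (1.10). Antithrombin (Serpinc1) had a log2 fold change of 0.93 and was not called.

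Among basement membrane genes and their binding partners, 8 of 9 could be tested, and 4 were called higher at P11, 0 higher at E21 and 4 were not called. Over all genes tested, 16.5% were called higher at P11 and 8.16% higher at E21. The median log2 fold change of the basement membrane list was -0.63. The linker proteins Nid2 (-4.88) and Nid1 (-4.54) changed most. The laminin chains divided, since Lamc1 rose from 35.5 to 116 CPM (-1.71) whereas Lama4 went from 294 to 155 CPM (0.92, not called). Since dissociation lasted hours, 9 genes of the immediate early response were also examined. Of these, 4 were called higher at P11, 1 higher at E21 and 4 were not called, with a median of 0.25. Atf3 had the largest rise (-3.73) and Socs3 fell (2.03). Their summed level was between 325 and 339 CPM at E21 and between 206 and 304 CPM at P11, again with P11 replicate 4 the highest of its stage, as for Adamts1 and Adamts4.

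For each member the genes of most similar pattern were sought among the 1778 other tested genes with a symbol, by the root mean square difference of log2 CPM over the 8 libraries after each gene's mean was subtracted. The closest to Adamts4 were C1qtnf2 (difference 0.088) and the laminin chain Lama4 (0.106). The closest to Adamts1 were Tst (0.155) and the laminin chain Lamc1 (0.173). Timp2 had the nearest neighbours of all, Slc43a2 (0.041) and Tspan7 (0.042), whereas those of Adamts14, Elk3 (0.329) and Nsf (0.348), were the most distant. Hpse was followed most closely by Cpne5 (0.120) and Gabra2 (0.142), the second of which encodes a subunit of the GABA-A receptor. Timp3 was followed by Lgals3bp (0.147) and by Eln (0.189), which encodes elastin, the main protein of elastic fibres. Elastin rose from 3.75 ± 0.219 CPM to 49.4 ± 3.76 CPM (SD, n = 4). The measure is dominated by the step between the stages and is given as a description.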

How the data were processed

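RNA-seq libraries of immunopanned rat RGCs, 4 at E21 and 4 at P11, were analysed. The authors used Cutadapt 1.16 and PRINSEQ for trimming and filtering, STAR 2.5.3a for alignment to Rnor_6.0 and HTSeq 0.6.1 for counting, and deposited 1 table of unnormalized counts per library, by Ensembl gene ID. The annotation release and strand setting are not given in the sources used here. Reads that aligned to several places were not counted. They made up 40.3% ± 2.04 of the records at E21 and 34.7% ± 2.14 at P11 (SD, n = 4), and all summary rows that name no gene, 51.7% to 58.4% of the records, were left out of library sizes and tests. Symbols came from the part at hand of the study's supplementary gene table, which paired 1998 of 32623 IDs, and the comparison columns of that table were not used.

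Genes were filtered with filterByExpr, scaled by TMM and tested with edgeR 4.0.16 (glmQLFit, robust, and glmQLFTest) in R 4.3.3, with all 8 libraries and no covariate. The standard error was taken as |log2 fold change| over the root of F. The floor of 3 counts was 0.152 to 0.219 CPM. Exact tests used scipy 1.17.1. No 2 libraries of a stage agreed within sampling noise (chi-square per degree of freedom 2.86 to 8.12), and each counted as 1 replicate. Tested on simulated data of this comparison with 200 of 13908 genes changed by a log2 fold of 2, edgeR called 197 and DESeq2 1.42.0 called 196, with 0 false calls. The simulated counts used the fitted dispersions, and all other genes were left unchanged. The simulation therefore does not speak for changes near the fold threshold, or for data in which many genes change. The members, gene lists and marker lists were chosen with earlier results of these data known. The text names all members, markers in sums, in each gene list the largest change in each direction among genes called, and for each member the 2 nearest named genes. Other list genes were named after their values were seen, and some genes of the lists are not reported here. Alternatives were DESeq2, 3 other scalings, 2 other filters, glmTreat, a threshold of 0.05, a replicate block and each library left out.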

Additional observations from a re-analysis of the deposited data

Results flagged for a closer look

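In 12 sets of 4 libraries, 1 for each gene and stage, the lowest or highest library was compared with the others by Dixon's ratio of its gap to the range. It stood apart in 3 sets, where chance alone gives about 1 in 20. Timp2 was at 142 CPM in E21 replicate 4 and at 147 to 148 CPM in the other E21 libraries, a gap of 0.906 of the range, in a stage whose spread did not exceed counting error. Timp3 was at 2.26 CPM in E21 replicate 3, a gap of 0.930 of the range, and at 26.1 CPM in P11 replicate 3, a gap of 0.919 of the range. Leaving these libraries out left Timp2 at a log2 fold change of -1.24 without E21 replicate 4, and Timp3 at -3.42 without E21 replicate 3 and -3.60 without P11 replicate 3.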

How the results depend on the processing

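Over 17 alternatives, 101 log2 fold changes of the 6 members were recomputed. The direction was the same in all of them, and 94 kept their side of the thresholds. The other 7 were all of Adamts4, for which the number of members called higher at E21 went from 1 to 0. These were library size scaling (0.97), upper-quartile scaling (0.97), 10 counts in every library (0.98), glmTreat (1.02, adjusted p = 0.806), and leaving out E21 replicate 2 (0.95), P11 replicate 1 (0.98) or P11 replicate 3 (0.96). Each of these but glmTreat moved an estimate that began at 1.02 just below the fold threshold of 1, and glmTreat tests against that threshold. With each library left out in turn Adamts4 ran from 0.95 to 1.12, the members called higher at E21 were 0 to 1, and the members called higher at P11 were 5. All genes called were 3446 to 3600 with each library left out, 2317 with glmTreat and 4205 with no filter on low counts. Adamts14 could not be tested with 10 counts in every library, which left 4 members called higher at P11. Scalings moved the median of all genes by at most 0.054 on the log2 scale. Same-numbered libraries did not deviate together (correlations of -0.027 to 0.078, with 2 of 4 numbers closest to their own), so the numbers were not used as pairs. The fit with the replicate block called 3463 genes and changed no call of a member. Adamts14 at E21 is limited by depth, with at most 3 reads per library.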
